A study of Oncorhynchus tshawytscha with 17 samples.

Results

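The comparison set the hindgut of 6 Chinook salmon (Oncorhynchus tshawytscha) given probiotics for 10 days against that of 6 control fish, across every gene counted. These 12 libraries were chosen by their treatment labels, out of 17 in the series. The other 5 came from fish given antibiotics for 10 days. They enter the statistical model, and their own levels are given only beside genes of the main comparison. The labels give the tissue as hindgut, the cell type as epithelia and the fish as diploid in every group, and they state that treated fish were killed in clove oil when treatment ended. The labels do not give age, strain, sex, the probiotic organisms, the dose or how controls were handled. Each fish carries here the title number and letter of its library: ctl12A to ctl12C and ctl35A to ctl35C for controls, pro115A to pro115C and pro139A to pro139C for probiotic fish. What the numbers and letters stand for is not given. Nothing states that the fish came from separate tanks, so p-values measure only the spread between these fish.

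The hindgut is the last segment of the salmon intestine. Its enterocytes take up whole protein from the lumen by endocytosis and digest it in lysosomes, and they take back bile acids. Probiotics are live microbes given to benefit the host, and gut microbes are known in fish and mammals to act on epithelial renewal, nutrient handling and mucosal immunity. A dividing or fast-growing epithelium has to build new ribosomes, which takes place in the nucleolus: RNA polymerase I transcribes the ribosomal RNA, small nucleolar ribonucleoproteins modify it, and large sets of processing factors cut, fold and assemble it into the small and the large subunit.

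Libraries held 28.6 to 61.1 M (1e6) counts, with 45.9 ± 12 M in probiotic fish and 46.2 ± 6.58 M in controls (SD, n = 6 each, exact permutation p = 0.952). Enterocyte genes marked every library. Levels are in CPM, counts per M counts of a library. The microvillus gene vil1 lay between 1225 and 2322 CPM in controls (median 1686) and between 1335 and 2704 CPM in probiotic fish (median 2107), and the endocytic receptor gene cubn between 3421 and 6083 CPM in controls (median 4799) and between 3748 and 5916 CPM in probiotic fish (median 4938). The epithelial adhesion gene epcam was scarce in both groups, between 1.94 and 8.01 CPM in controls (median 5.95) and between 2.94 and 10.5 CPM in probiotic fish (median 5.48). The first 2 principal components of the 1000 most variable genes did not separate the groups (exact permutation p = 0.491 and 0.766). Single probiotic fish carried genes of other organs. In pro139C the pancreatic carboxypeptidase gene cpb1 stood at 295 CPM, against at most 50.8 CPM in any other fish of the comparison. In pro139B the liver gene fetub stood at 11.98 CPM, against at most 3.70 CPM in any other fish of the comparison. For some gene lists below, values are also given without these 2 fish. Values of single genes are not given without them.

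No gene passed the test. Of 30221 genes with enough counts, edgeR's quasi-likelihood test called 0 at an adjusted p under 0.05 (0.0% of genes), and the smallest adjusted p was 0.166. The same counts held 2935 genes with an unadjusted p under 0.05 (9.71% of genes). Of these, 1598 were higher in probiotic fish (5.29% of genes) and 1337 were lower (4.42%). All 6 probiotic fish lay above all 6 controls in 38 genes (0.126%) and below them in 50 genes (0.165%). Log2 fold changes were above 0 in 15315 genes (50.7%), with a median of 0.00, which the scaling of the libraries (TMM) sets near 0 by construction. The words higher and lower below describe values, not calls, unless a test is named.

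Precision allows a bound on many genes. The 95% interval of the fold change lay within 2-fold in either direction for 19946 genes (66.0%), and for 90.3% of the 11967 genes with a mean of at least 10 CPM. DESeq2 on the same counts called 34 genes (0.113%), 15 higher and 19 lower. Limma-voom called 0, with 2932 genes at an unadjusted p under 0.05. A fit of the 12 libraries alone called 1 gene (0.00331%). The unadjusted count moved by more than 1.5 times when certain single fish were left out. It was 4460 without ctl12C and 4711 without pro115B, but 1937 without ctl35C, 1854 without pro115C and 1907 without pro139C. With the number in the index name of each library's title as a further factor it was 4445.

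**Figure D1:**
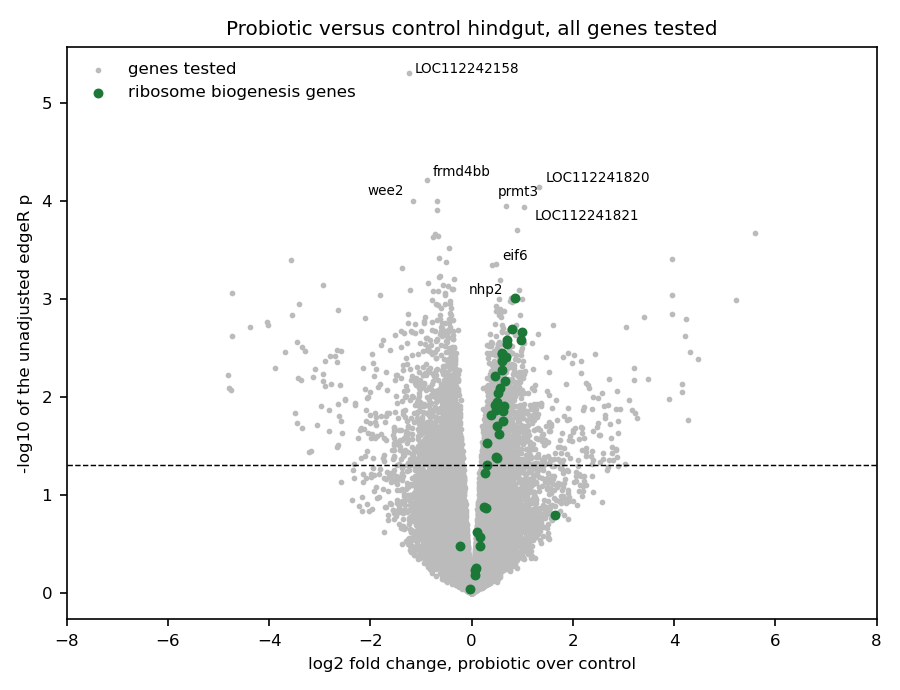
Log2 fold change between 6 probiotic and 6 control fish (horizontal) against the unadjusted edgeR p on a negative log10 scale (vertical) for the 30221 genes tested. The dashed line marks p of 0.05. Of the 40 ribosome biogenesis genes in green, 38 lie right of 0.

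Of 38 gene lists, that of ribosome biogenesis held the largest share of members higher in probiotic fish at an unadjusted p under 0.05. Of 41 ribosome biogenesis genes with a symbol, 40 were tested, 38 of them had a higher mean in probiotic fish, and 27 did so at an unadjusted p under 0.05, against 0 lower at that p. That is 67.5% of the list, where 5.29% of all genes were higher at that p. The median log2 fold change was 0.50, or 1.41-fold, against 0.00 over all genes. No member passed over all genes (edgeR adjusted p of at least 0.446), and in none did the groups separate fully. The members were measured in the same fish, so their number is not a count of independent results. The lists were chosen with earlier results of these data known, so the rank of this list is not a test.

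Of the 5 tested genes of small nucleolar ribonucleoproteins, which guide modification of ribosomal RNA, 5 were higher and 4 of them at an unadjusted p under 0.05. The smallest p belonged to nhp2, a subunit of the pseudouridine-forming particle, which lay between 14.2 and 23.7 CPM in controls (median 16.6) and between 19.2 and 48.3 CPM in probiotic fish (median 30.7). Fish pro115A, pro115C, pro139A and pro139C lay above all controls, while pro115B and pro139B did not (log2 fold change 0.85 ± 0.21 SE, edgeR adjusted p = 0.446). Its partner dkc1, the pseudouridine synthase itself, lay between 31.3 and 45.4 CPM in controls (median 35.1) and between 31.7 and 87.6 CPM in probiotic fish (median 58.5), with a log2 fold change of 0.63 ± 0.23 SE. Its other partner gar1 had a log2 fold change of 0.48, and nop58, a core protein of the methylating particle, 0.49. The copy of fbl with a symbol, the methyltransferase of that particle, was scarce. It reached 8.51 CPM in pro139A and its controls stayed between 0.178 and 1.42 CPM.

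Among 4 RNA polymerase I genes, 4 were higher and 2 at an unadjusted p under 0.05. The largest subunit, polr1a, lay between 18.3 and 25.1 CPM in controls (median 20.0) and between 22.0 and 47.2 CPM in probiotic fish (median 30.2), and 5 of 6 probiotic fish were above all controls (log2 fold change 0.60 ± 0.18 SE). The second subunit, polr1b, had a log2 fold change of 0.50. The subunits that RNA polymerase I shares with RNA polymerase III, polr1c and polr1d, were at 0.26 and 0.16, and neither reached an unadjusted p of 0.05.

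Of 15 small-subunit factors, 15 were higher and 11 at an unadjusted p under 0.05. The gene with the largest fold change among these was rrp12, needed for export and maturation of the small subunit, which lay between 22.8 and 38.5 CPM in controls (median 29.6) and between 34.0 and 92.7 CPM in probiotic fish (median 53.6). Fish pro115C at 92.7 CPM and pro139C at 84.8 CPM were the highest, and pro115B and pro139B stayed within the control range (log2 fold change 0.99 ± 0.28 SE). The scaffold genes heatr1 and utp20, both parts of the early processing complex, lay at log2 fold changes of 0.97 and 0.80. In rrp9, which binds the U3 small nucleolar RNA, 5 of 6 probiotic fish were above all controls at log2 0.71. The 4 factors above an unadjusted p of 0.05 were wdr43 (0.24), nob1 (0.09), ddx52 (0.07) and utp23 (0.06), on the log2 scale.

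Of 12 large-subunit factors, 12 were higher and 10 at an unadjusted p under 0.05. The ribosomal RNA methyltransferase gene nop2 lay between 25.5 and 35.7 CPM in controls (median 30.4) and between 35.7 and 77.4 CPM in probiotic fish (median 43.0), with 5 of 6 probiotic fish above all controls (log2 fold change 0.70 ± 0.20 SE). The helicase genes ddx18 and ddx56 stood at log2 0.60 and 0.61, and the assembly factor genes brix1, mak16, nop16, wdr12 and ebna1bp2 between 0.46 and 0.65. The GTPase gene gnl3l was at 0.31, and bop1 and gnl3 did not reach that p (0.28 and 0.17).

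Other nucleolar genes differed less. The genes of the abundant nucleolar proteins ncl and npm1b had log2 fold changes of 0.29 and 0.10, and neither was below an unadjusted p of 0.05. The helicase gene ddx21 stood at -0.02. The gene of myc, a transcription factor known to drive ribosome biogenesis in mammals, stood at -0.23, with probiotic fish at 1.84 to 4.03 CPM and controls at 2.52 to 4.13 CPM. The protein genes of the finished cytosolic ribosome did not follow: of 39 tested, 20 were higher, and the median log2 fold change was 0.00. The exception at an unadjusted p under 0.05 was rpl5a, whose product travels to the assembling large subunit with the 5S RNA. It lay between 29.4 and 44.8 CPM in controls (median 37.1) and between 38.4 and 92.5 CPM in probiotic fish (median 61.5), with a log2 fold change of 0.69 ± 0.21 SE.

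Fish of the probiotic group differed strongly in this group of genes. The mean log2 CPM of the 40 genes, set to 0 at the control mean, was 0.94 in pro115C, 0.66 in pro139C, 0.48 in pro115A and 0.34 in pro139A. It was 0.08 in pro115B and -0.07 in pro139B, within the control range of -0.16 to 0.18. By this measure the difference was carried by 4 of 6 fish, but other measures place pro115B and pro139A otherwise. The summed CPM of the genes was 2269 in pro115B, 1849 in pro139A and 1781 in pro139B, against 1587 to 2026 in controls. Above the control median lay 34 of 40 members in pro115B, 32 in pro139A and 24 in pro139B. In pro115C 36 of 40 members lay above all controls, in pro139C 32, in pro115A 29 and in pro139A 22, against 11 in pro115B and 4 in pro139B. At least 4 of 6 probiotic fish lay above all controls in 21 of the 40 genes (52.5%), where 4.97% of all genes did so. That cut matches the 4 fish named above, and the members vary together, so this count is no separate result.

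The count of 27 members stayed between 20 and 29 when each fish was left out in turn, and was 24 without pro139B and pro139C. Over 22 alternatives (other scalings, filters, tools and factors, and 1 or 2 fish left out, with the fits by title number apart) the median log2 fold change ranged from 0.38 to 0.59. Fitted within pairs of title numbers it was 0.59 for ctl12 against pro115 fish and 0.38 for ctl12 against pro139 fish. It was 0.62 for ctl35 against pro115 fish and 0.38 for ctl35 against pro139 fish. In those smaller fits 18, 5, 21 and 14 members were higher at an unadjusted p under 0.05, respectively.

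**Figure D2:**
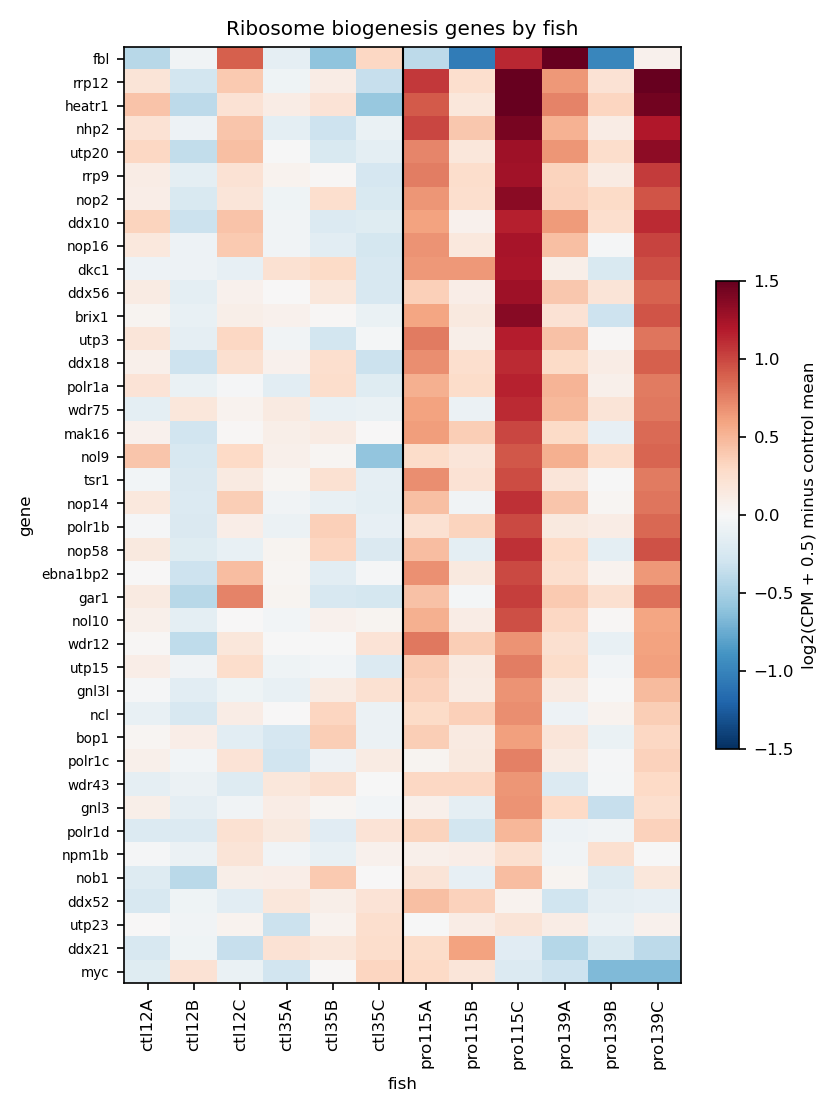
Level of each of the 40 tested ribosome biogenesis genes (rows, ordered by fold change) in each fish (columns), as log2(CPM + 0.5) minus the control mean, with the scale held at 1.5 in either direction. By mean log2 CPM, pro115A, pro115C, pro139A and pro139C lie above the controls, and pro115B and pro139B within the control range. Above the control median lie 34 of 40 genes in pro115B and 32 in pro139A.

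Among single genes, the smallest p belonged to LOC112242158, a protein-coding gene with no symbol in the tables used (NW_020132678.1, 12018 to 19669, minus strand, in the coordinates of the deposited table, of unstated build). It lay between 159.6 and 281 CPM in controls (median 245) and between 81.7 and 118 CPM in probiotic fish (median 104). Every probiotic fish was below every control, and ctl12A, the lowest control, stood apart from the other 5 (log2 fold change -1.25 ± 0.19 SE, 2.37-fold lower, edgeR adjusted p = 0.166). DESeq2 called it at adjusted p = 2.16e-05, and edgeR on the 12 libraries alone at adjusted p = 0.0226. In antibiotic fish it lay between 101 and 228 CPM.

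The next gene was frmd4bb, which encodes a FERM-domain scaffold protein (NC_037112.1, 55124792 to 55151192, plus strand). It lay between 37.2 and 54.3 CPM in controls (median 43.1) and between 13.5 and 31.0 CPM in probiotic fish (median 25.2). The groups did not overlap, and pro115C was the lowest fish (log2 fold change -0.89 ± 0.17 SE, adjusted p = 0.446 in edgeR and 0.00438 in DESeq2). The kinase gene wee2, which in mammals keeps oocytes arrested in meiosis, lay between 5.88 and 13.2 CPM in controls (median 9.31) and between 1.70 and 5.43 CPM in probiotic fish (median 4.59), again without overlap (log2 fold change -1.15 ± 0.23 SE, DESeq2 adjusted p = 0.00438). In antibiotic fish wee2 lay between 7.95 and 11.34 CPM, above every probiotic fish.

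For each gene below that has a DESeq2 value, edgeR's adjusted p was 0.446. A pair of neighbouring genes was higher in probiotic fish. LOC112241820 and LOC112241821 are the only genes that the deposited table places on scaffold NW_020131978.1, on the same strand and 101 bases apart (27697 to 34377 and 34479 to 37217). The first lay between 2.86 and 6.77 CPM in controls (median 4.47) and between 7.25 and 16.8 CPM in probiotic fish (median 11.10), with a log2 fold change of 1.34 ± 0.26 SE, DESeq2 adjusted p = 0.00438. The second lay between 4.74 and 8.81 CPM in controls (median 7.003) and between 10.6 and 19.9 CPM in probiotic fish (median 13.9), with a log2 fold change of 1.03 ± 0.21 SE, DESeq2 adjusted p = 0.00796. In both genes every probiotic fish was above every control, and pro139C was the highest. Whether reads of a single longer transcript fall on both was not tested. In antibiotic fish they lay at 7.32 to 15.6 and 9.32 to 20.3 CPM, within a log2 difference of -0.04 and -0.10 of probiotic fish.

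A pair of further genes with roles at the ribosome lay among the 30 genes of smallest p. The first, eif6, encodes a factor that keeps the large subunit from joining the small one too early (NC_037103.1, 30928082 to 30940815, minus strand). It lay between 17.8 and 23.7 CPM in controls (median 21.2) and between 25.0 and 34.2 CPM in probiotic fish (median 29.3), with no overlap (log2 fold change 0.48 ± 0.11 SE, adjusted p = 0.446 in edgeR and 0.0443 in DESeq2). The other, prmt3, encodes an arginine methyltransferase whose known substrate in mammals and yeast is a protein of the small subunit (NC_037100.1, 53296775 to 53393670, minus strand). It lay between 6.62 and 8.46 CPM in controls (median 7.024) and between 9.01 and 15.9 CPM in probiotic fish (median 11.42), with no overlap and pro115C the highest (log2 fold change 0.67 ± 0.14 SE, adjusted p = 0.446 in edgeR and 0.00515 in DESeq2). Neither is a member of the ribosome biogenesis list, and both were named because of their p.

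Most of the 30 genes of smallest p were lower in probiotic fish (21, against 9 higher). The groups did not overlap in 17 of the 30, against 88 of all 30221 genes. The 30 were picked by p in these same fish, which favours separated groups, so that count is no separate result. Of the 30, 10 have a symbol. The nucleic acid transporter gene sidt2, whose product sits in the lysosomal membrane in mammals, lay between 78.0 and 138 CPM in controls (median 105) and between 45.8 and 84.4 CPM in probiotic fish (median 63.7). Its groups overlapped through ctl12A and pro115B (log2 fold change -0.73 ± 0.16 SE, DESeq2 adjusted p = 0.0226). The gene rabep2, which encodes a rabaptin of early endosomes, lay between 45.3 and 69.8 CPM in controls (median 55.6) and between 27.7 and 44.0 CPM in probiotic fish (median 37.7) without overlap (log2 fold change -0.66 ± 0.14 SE, DESeq2 adjusted p = 0.0278). The gene tmem38b, a potassium channel of the endoplasmic reticulum that balances calcium release, lay between 167 and 207 CPM in controls (median 187) and between 121 and 155 CPM in probiotic fish (median 130.0), with a log2 fold change of -0.50 ± 0.11 SE, DESeq2 adjusted p = 0.0318. Its groups stood apart with narrow spread. The receptor-like gene gpr137, the angiotensin receptor-associated gene agtrap and syap1 had log2 fold changes of -0.56, -0.87 and -0.39, and DESeq2 did not call them.

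**Figure D3:**
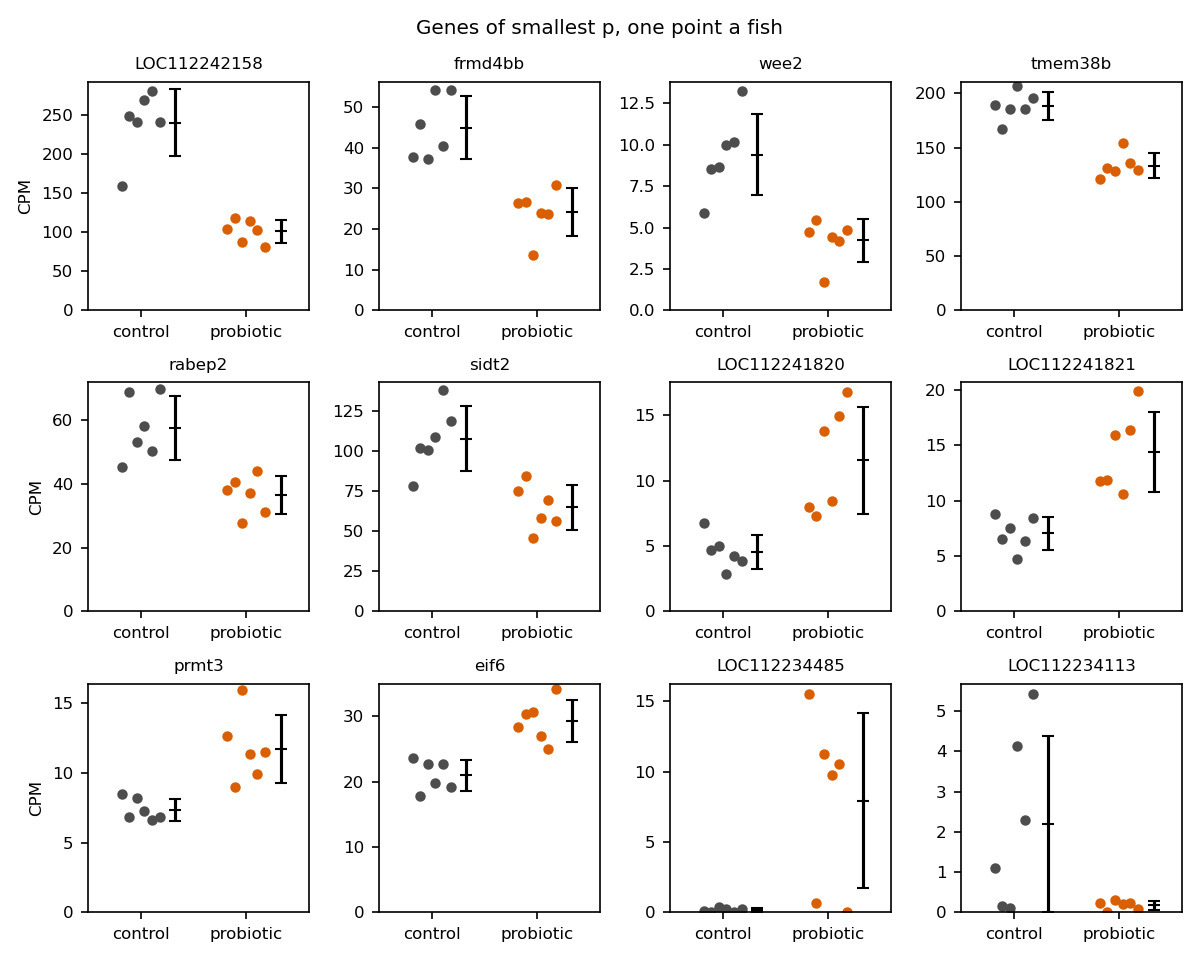
CPM by fish (points, 6 a group) with the mean and SD beside them, for 12 of the 30 genes of smallest p. In 9 panels the groups do not overlap, while sidt2, LOC112234485 and LOC112234113 overlap or rest on some of the fish.

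Among the 11967 genes with a mean of at least 10 CPM, the groups did not overlap in 45, of which 13 were higher and 32 lower. Over all 30221 genes, the probiotic fish lay above all controls in 0.126% and below them in 0.165%. The genes that follow were named because their groups do not overlap. Those with a symbol on the lower side that have not been named above were traf3ip2a, ptpn13, fam204a, itpr1, ptprfa, wsb2 and fhip2b. The adaptor gene traf3ip2a, through which the interleukin 17 receptor signals, lay between 31.7 and 45.7 CPM in controls (median 33.8) and between 22.9 and 31.0 CPM in probiotic fish (median 26.7), with a log2 fold change of -0.42 ± 0.11 SE. The calcium release channel gene itpr1 lay between 21.8 and 32.5 CPM in controls (median 26.0) and between 14.4 and 21.4 CPM in probiotic fish (median 20.4), with a log2 fold change of -0.41 ± 0.14 SE. The tyrosine phosphatase genes ptpn13 and ptprfa had log2 fold changes of -0.45 and -0.27. On the higher side stood, besides eif6, the DNA helicase gene ddx11 at log2 0.37. The smallest of these differences was that of fhip2b, at -0.19 ± 0.09 SE.

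Some DESeq2 calls rested on part of a group. In 14 of its 34 genes, levels within a group ranged over more than 3 log2 units. LOC112234485 stood at 15.5, 11.26, 9.75 and 10.5 CPM in pro115A, pro115C, pro139A and pro139B, at 0.641 and 0.0361 CPM in the other probiotic fish, and at no more than 0.361 CPM in controls. It was thus present in 4 fish and nearly absent from 8. The pentose phosphate enzyme gene pgd stood at 18.8 CPM in pro139A and 29.0 CPM in pro139C, and at no more than 0.997 CPM in the other 10 fish. On the lower side, LOC112234113 reached 5.42 CPM in ctl35C, but ctl12B and ctl12C, at 0.159 and 0.113 CPM, lay below the highest probiotic fish at 0.309 CPM. For such genes a mean fold change describes few fish.

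Many genes of protein folding had a higher mean in probiotic fish, but the groups overlapped. The mean log2 CPM of the list, set to 0 at the control mean, ran from -0.26 in ctl35B to 0.36 in ctl12C among controls. It ran from -0.20 in pro115B to 0.77 in pro139C among probiotic fish, and pro115A, at 0.32, was also within the control range. Of 34 heat shock and folding genes tested, 28 were higher, 13 of them at an unadjusted p under 0.05 and 2 lower at that p, with a median log2 fold change of 0.36. Over all genes 5.29% were higher and 4.42% lower at that p. The chaperone gene of the endoplasmic reticulum hyou1 stood between 85.8 and 93.6 CPM in pro115C, pro139A, pro139B and pro139C, and at no more than 61.0 CPM in controls. The gene edem1, which directs misfolded glycoproteins to disposal, stood highest in pro139B at 21.3 CPM and at no more than 6.57 CPM in controls (log2 fold change 1.36 ± 0.54 SE). The co-chaperone genes stip1 and chordc1 had log2 fold changes of 0.68 and 0.86. On the other side were bag3 at -0.68, and hspb1 at -0.78. The product of bag3 is a co-chaperone of small heat shock proteins and hspb1 encodes one of them, and in mammals both are abundant in muscle. The smooth muscle genes were lower too, as described with the other cell types, and their part in these values was not tested.

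Of 35 cell cycle and DNA replication genes, 32 were higher, 9 at an unadjusted p under 0.05, with a median log2 fold change of 0.49. At that p 1 member was lower, where over all genes 5.29% were higher and 4.42% lower. The origin-binding gene orc1 lay between 2.34 and 5.61 CPM in controls (median 2.66) and between 2.83 and 9.03 CPM in probiotic fish (median 5.84), with a log2 fold change of 0.86 ± 0.28 SE. The gene cdc45, which encodes a part of the replicative helicase, lay between 0.793 and 5.16 CPM in controls (median 3.36) and between 2.46 and 13.2 CPM in probiotic fish (median 6.44), with a log2 fold change of 1.14 ± 0.46 SE. In cdc45 every probiotic fish but pro115B was above all controls, and ctl35B was the lowest fish. The mean log2 CPM of the list, set to 0 at the control mean, ran from -1.26 in ctl35B to 0.94 in ctl12C among controls, and from -0.84 in pro115B to 1.30 in pro115C among probiotic fish, so the groups overlapped widely. Between ctl12 and pro115 fish the median was 0.02, and between ctl35 and pro139 fish it was 1.24.

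Sterol synthesis genes were higher in 14 of 17 members, 4 at an unadjusted p under 0.05 (5.29% over all genes), with a median log2 fold change of 0.39. On the other side, 1 member was lower at that p, the lysosomal cholesterol exporter gene npc1 at -0.26. Of the fatty acid synthesis genes, acaca, the rate-limiting carboxylase, lay between 3.92 and 9.17 CPM in controls (median 4.97) and between 4.86 and 19.6 CPM in probiotic fish (median 11.6). Fish pro115C, pro139A, pro139B and pro139C were above all controls (log2 fold change 0.98 ± 0.33 SE). The genes of the synthase fasn, the desaturase scd and the elongase elovl5 had log2 fold changes of 0.43, 0.56 and 0.07, none at an unadjusted p under 0.05. Of 53 mitochondrial ribosome genes, 48 were higher, 12 at that p, and 1 was lower at that p, with a median of 0.24. Among 32 oxidative phosphorylation genes 21 were higher, 0 at that p, with a median of 0.03.

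The same fish led these lists. By mean log2 CPM, pro115C and pro139C were the 2 highest of all 12 in the ribosome biogenesis, heat shock, cell cycle, sterol and mitochondrial ribosome lists. Fish pro115B was below the control mean in the heat shock (-0.20), cell cycle (-0.84), sterol (-0.72) and mitochondrial ribosome (-0.18) lists. Among controls ctl12C was the highest in all 5 by the same measure. Without pro139B and pro139C the medians were 0.31 for heat shock, 0.44 for cell cycle, 0.32 for sterol and 0.20 for mitochondrial ribosome genes.

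**Figure D4:**
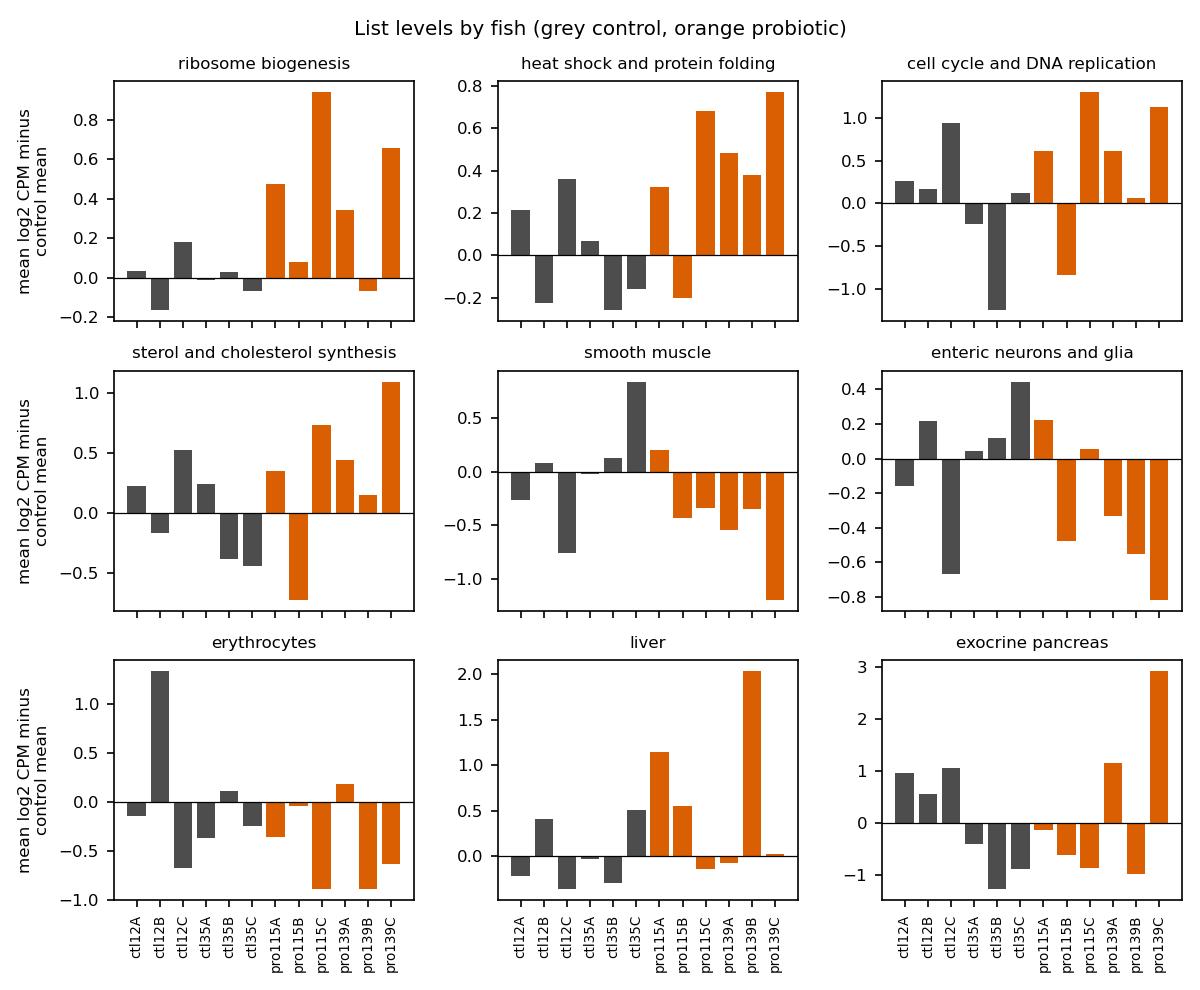
Mean log2 CPM of the tested members of 9 gene lists in each fish, minus the control mean (bars, grey for controls and orange for probiotic fish, with a separate vertical scale in each panel). Fish pro115C and pro139C stand highest in the first 4 panels, pro139B in the liver panel and pro139C in the pancreas panel.

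Genes of several other cell types were lower in the same comparison. Of 4 smooth muscle genes, 4 were lower, 1 at an unadjusted p under 0.05 (4.42% over all genes), and the list median was -0.42. Their summed level was 1374 to 3771 CPM (median 2014) in controls and 979 to 2229.6 CPM (median 1571) in probiotic fish. The calponin gene cnn1b was highest in ctl35C at 1074 CPM and lowest in pro139C at 209 CPM. Of 10 genes of enteric neurons and glia, 8 were lower, with summed levels of 43.9 to 108 CPM (median 78.4) in controls and 41.4 to 91.6 CPM (median 57.8) in probiotic fish. Of 8 erythrocyte genes, 7 were lower, with summed levels of 51.9 to 163 CPM (median 62.4) in controls and 48.2 to 87.6 CPM (median 58.7) in probiotic fish, and ctl12B was the highest. Connective tissue and vessel genes differed less: of 17, 14 were lower, 0 at an unadjusted p under 0.05, with a median of -0.12. Their summed levels were 3632 to 6909 CPM (median 5275) in controls and 3236 to 6689 CPM (median 4289) in probiotic fish. In whole tissue, fewer cells of a type and less RNA per cell cannot be told apart. The part of these cell types in the differences above was not tested.

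The smooth muscle level relative to the control mean was -1.20 log2 units in pro139C, -0.55 in pro139A, -0.34 in pro115C and 0.21 in pro115A. These are the 4 fish with the highest mean log2 CPM of ribosome biogenesis genes. The smooth muscle level was -0.43 in pro115B and -0.35 in pro139B, and among controls it ran from -0.76 in ctl12C to 0.84 in ctl35C. Without pro139B and pro139C the smooth muscle median was -0.28, and that of ribosome biogenesis was 0.53.

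Liver and pancreas genes stood high in some of the probiotic fish. Of 19 liver genes 15 were higher, 2 at an unadjusted p under 0.05 (5.29% over all genes), with a median log2 fold change of 0.80. The list stood at 2.04 log2 units above the control mean in pro139B, 1.15 in pro115A and 0.55 in pro115B, all above the highest control, ctl35C, at 0.51. The heme-binding plasma protein gene hpxa stood at 4.57 CPM in pro139B and 1.38 CPM in pro115A, and at no more than 0.471 CPM in controls. Without pro139B and pro139C the median was 0.47. The liver list was not high in probiotic fish beside antibiotic fish. In that contrast its median log2 difference was -1.07, with 1 of 19 members higher in probiotic fish. Of the 3 pancreatic genes tested, cpb1 and cpa5 were highest in pro139C, and they also reached 50.2 and 8.99 CPM in pro139A and 50.8 and 9.15 CPM in ctl12C. Without pro139B and pro139C the median of the 3 was -0.35.

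Lists of the enterocyte's own work had medians between -0.07 and 0.16. Of 26 endocytic and lysosomal genes, 18 were lower, 3 at an unadjusted p under 0.05 (4.42% over all genes), with a median log2 fold change of -0.07. The 3 were the lysosomal hydrolase gene hexb and the cathepsin genes ctsh and ctsc, at -0.32, -0.54 and -0.27. For hexb 5 of 6 probiotic fish were below all controls, and for ctsh 4 of 6. The share of all genes with such a split was not counted, here or for the single genes below. Brush border and digestion genes had a median of 0.05 over 13 genes, with the trehalose-splitting enzyme gene treh lower at -0.32, and tight and adherens junction genes a median of 0.07 over 10. Among 20 genes of lipid absorption and metabolism 18 were higher, with a median of 0.16, and acaca was the 1 member at an unadjusted p under 0.05. That is 5.0% of the list, near the 5.29% of all genes that were higher at that p.

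Of 7 bile acid handling genes 5 were higher, with a median of 0.06, and 1 was higher at an unadjusted p under 0.05. That is 14.3% of the list against 5.29% of all genes. This member, the exporter gene abcc3, was above all controls in 5 of 6 probiotic fish and below them in pro115B. It lay at 0.101 to 2.19 CPM against 0.203 to 0.727 CPM in controls (log2 fold change 1.90 ± 0.56 SE). The ileal uptake transporter gene slc10a2 lay between 1398 and 2636 CPM in controls (median 1723) and between 1718 and 3173 CPM in probiotic fish (median 2531), with a log2 fold change of 0.38 ± 0.18 SE. The bile acid binding protein gene fabp6 had a log2 fold change of 0.06 and overlapped fully. The xenobiotic receptor gene nr1i2, which senses bile acids and drugs, was below all controls in 5 of 6 probiotic fish (log2 fold change -0.40 ± 0.14 SE). It belongs to the oxidative stress and xenobiotic list, where 10 of 13 genes were higher, with a median of 0.04. In that list nr1i2 was the 1 member lower at an unadjusted p under 0.05, and 0 were higher at that p. Of 6 goblet cell and mucus genes 5 were higher, with a median of 0.36. The glycosyltransferase gene b3gnt7 was the 1 member at an unadjusted p under 0.05 (0.44), or 16.7% of the list against 5.29% of all genes.

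Immune gene lists had medians of either sign. The medians were 0.02 over 24 genes of pattern recognition and NF-kB signalling, 0.01 over 12 genes of T and NK cells and -0.01 over 11 genes of B cells. Interferon and antiviral genes had a median of -0.14 over 10, with 0 at an unadjusted p under 0.05. Of 7 antigen presentation genes 5 were lower (median -0.30), as were 9 of 14 cytokine and chemokine genes (-0.11). Of 10 genes of macrophages and granulocytes 8 were higher (median 0.25), and of 8 complement genes 7 (0.23). Neither list was high in every probiotic fish. Mean log2 CPM of the macrophage list, minus the control mean, ran from -0.30 in pro139B to 1.02 in pro115B. That of the complement list was 0.92 in pro139B, 0.76 in pro115A and 0.58 in pro115B, the fish that also led the liver list. It was -0.01 in pro139A, -0.43 in pro139C and -0.45 in pro115C. The gene c9 is in both the complement and the liver list. The kinase gene irak4, which carries Toll-like receptor signals, lay between 31.3 and 53.5 CPM in controls (median 46.3) and between 21.1 and 44.6 CPM in probiotic fish (median 29.4), with a log2 fold change of -0.53 ± 0.20 SE. The NF-kB inhibitor gene tnfaip3 was below all controls in 5 of 6 probiotic fish (-0.25). The macrophage growth factor gene il34 stood at -0.56, and spi1a, a transcription factor of macrophages and granulocytes, at 0.50, each with an unadjusted p under 0.05. These single genes were named because of their p. At that p, 2 pattern recognition members, 1 cytokine member and 1 antigen presentation member were lower, and 1 macrophage member was higher. The other immune lists held 0. Of all genes, 5.29% were higher and 4.42% lower at that p.

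Circadian clock genes were lower in 12 of 13 members, 0 at an unadjusted p under 0.05, with a median log2 fold change of -0.21. The labels do not give the times of day of sampling. Of 23 immediate early and handling stress genes 14 were lower, 1 at that p (4.42% over all genes), with a median of -0.04. The stress transcription factor gene atf3 was below all controls in 5 of 6 probiotic fish and above most of them in pro139B at 133 CPM (log2 fold change -0.61 ± 0.22 SE). Of 18 hypoxia and glycolysis genes 12 were lower, with a median of -0.07. At an unadjusted p under 0.05, 2 were lower and 1 was higher (4.42% and 5.29% over all genes). In this list the mitophagy gene bnip3 was below all controls in 5 of 6 probiotic fish (log2 fold change -0.33 ± 0.10 SE), and the enzyme gene gapdh above all controls in 5 of 6 (log2 fold change 0.29 ± 0.14 SE).

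**Figure D5:**
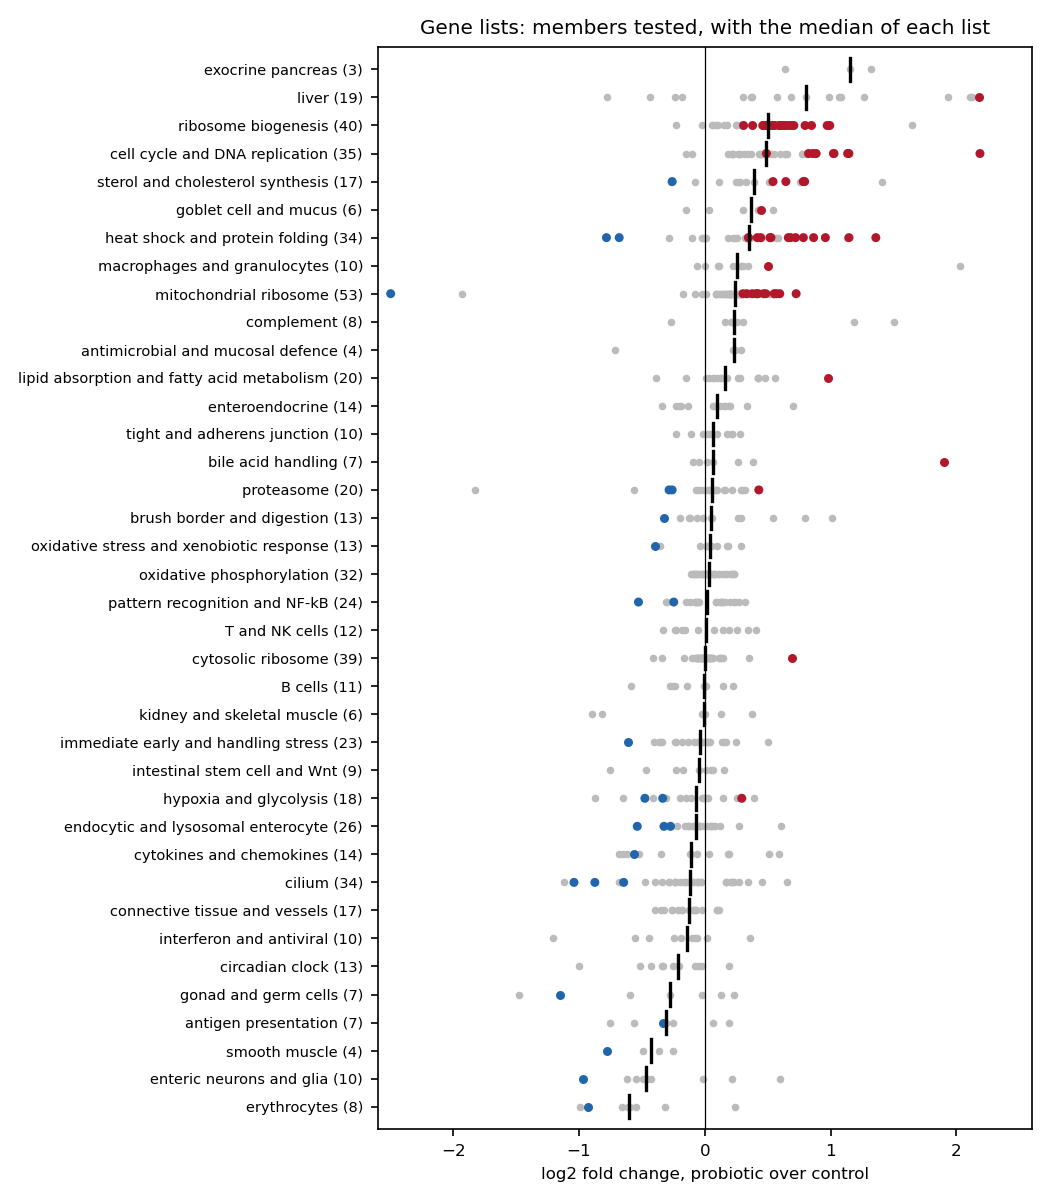
Log2 fold change between probiotic and control fish for each tested member (points) of 38 gene lists, with the number tested in brackets and the list median as a black bar. Red points were higher and blue points lower at an unadjusted p under 0.05, and 2 members lie outside the axis. The ribosome biogenesis list has the most red points, 27 of 40.

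The levels in the 5 antibiotic fish place these values, with the limit that both treatments were set against the same controls. In the direct contrast of probiotic with antibiotic fish, edgeR called 0 genes (0.0%), with a smallest adjusted p of 0.572. At an unadjusted p under 0.05 stood 1827 of 30221 genes. Ribosome biogenesis genes had a median log2 difference of 0.09 in that contrast. Of the 40, 31 were higher in probiotic fish, and 0 differed at an unadjusted p under 0.05. Cell cycle genes had a median of -0.08, with 17 of 35 higher in probiotic fish, and erythrocyte genes 0.10, with 7 of 8 higher. Heat shock genes stood at 0.18 (24 of 34 higher), sterol genes at 0.18 (12 of 17) and mitochondrial ribosome genes at 0.12 (39 of 53). Smooth muscle genes stood at -0.26 (0 of 4 higher) and enteric neuron and glia genes at -0.11 (2 of 10). For nhp2 the antibiotic fish lay between 22.9 and 39.3 CPM, inside the probiotic range. For frmd4bb they lay between 29.98 and 46.2 CPM, with a log2 difference of -0.79 (edgeR adjusted p = 0.653), and for wee2 the difference was -1.21 (edgeR adjusted p = 0.653). No gene was thus shown to differ between the treatments.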

How the data were processed

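RNA of the hindgut was sequenced in pairs of 100-base reads on a NovaSeq, per the labels' protocols. Per the submitters' processing notes, the authors used Trimmomatic 0.38 for trimming, HISAT2 for alignment and featureCounts for counting. The labels state neither the build, nor the strand setting, nor how multi-mapping reads were treated, so salmonid gene copies and overlapping genes may share reads. The authors deposited 1 table of raw counts with 42555 entries. The 1 entry with no gene name held 0.263 ± 0.0900% of counts in controls and 0.259 ± 0.144% in probiotic fish (SD, n = 6 each) and was left out. Symbols came from that table (4401) or, for 6084 of 38153 LOC identifiers, from a RefSeq gene table of assembly Otsh_v2.0, used for names only.

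Groups follow the treatment labels. Genes kept by filterByExpr were tested with edgeR 4.0.16 (TMM, robust quasi-likelihood F-test, 2-sided, Benjamini-Hochberg adjustment over all 30221 genes) in a fit of all 17 libraries, in R 4.3.3. CPM values use TMM library sizes, and log2 CPM a prior count of 2. Alternatives used DESeq2 1.42.0, limma 3.58.1, other scalings and filters, further factors and fewer fish. The fits were tested on simulated data.

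The gene lists, tests and named genes were chosen with earlier results of these data known. Genes named were drawn from these sets, of which not every member is described: the 30 of smallest p, DESeq2 calls with a symbol, the 3 members of smallest p and the member with most counts per kilobase of each list, and, among genes with a symbol and a mean of at least 10 CPM whose groups do not overlap, the 10 of smallest p in each direction. Further members of lists were named after their values were seen. A further gene of these sets is not reported here. No sequence is shown.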

Additional observations from a re-analysis of the deposited data

Results flagged for a closer look

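Among 136 sets of 6 values (each named gene of smallest p and each list, in each group), 11 held a fish whose gap to its nearest neighbour, as a share of the whole range on the log2 scale, was above Dixon's 95% critical value. Chance flags about 1 in 20 such sets. Fish ctl12C was above the other controls in proteasome genes (0.730) and below them in intestinal stem cell and Wnt genes (0.657). Fish pro139A was above the other probiotic fish in goblet cell and mucus genes (0.714). Fish ctl12A, at 159.6 CPM, was below the other controls in LOC112242158 (0.727). Fish pro115C was below the other probiotic fish in frmd4bb (0.683), wee2 (0.778), LOC112256808 (0.669) and LOC112214559 (0.719). Fish pro139B was above the others in LOC112249934 (0.652) and agtrap (0.649) and below them in LOC112225403 (0.673).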

How the results depend on the processing

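The count of genes called at an adjusted p under 0.05 was 0 under RLE and upper quartile scaling, without the filter, with a mean of at least 1 CPM, in limma-voom, with the index number of the title, with the title letter or title number as a block, and with any fish left out. It was 34 with DESeq2, 1 in the fit of the 12 libraries, and, in fits of 1 title number a group added after seeing the data, 8 for ctl12 with pro115 fish and 106 for ctl35 with pro139 fish. Those smaller fits gave 1100 and 7667 genes at an unadjusted p under 0.05, and 989 for ctl12 with pro139 fish. The unadjusted count of 2935 became 4445 with that index number as a factor and ran from 1854 to 4711 with single fish left out. Genes whose groups do not overlap, 88 with all fish, numbered 109 to 383 with 1 fish left out, 330 without pro139B and pro139C and 343 without ctl12A and pro139A, since fewer fish overlap less by construction. The 27 ribosome biogenesis genes became 18 and 21 for pro115 fish with ctl12 and ctl35 fish, and 5 and 14 for pro139 fish with ctl12 and ctl35 fish. The cause was not tested. With the title letter as a replicate block the unadjusted count was 2743 and 0 genes were called. Residual correlations of so few fish cannot show whether the letters pair fish. Across groups they had a mean of 0.05 in same-letter fish, from -0.24 to 0.42. In other-letter fish the mean was -0.03, from -0.30 to 0.21. Fold changes of single genes were followed only for the 30 of smallest p and the DESeq2 calls with a symbol. This was done under these alternatives apart from the changed filters. Of these values, 778 kept their direction and their side of the threshold, 28 became calls, mostly in DESeq2, and 0 changed sign. These genes were picked by p in the same fish, which favours a kept sign, so the 0 is no separate result. Depth limits scarce genes most, and over all genes the median SE was 0.24 log2 units.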

Other observations

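The 10 most abundant genes of each library took 13.3 ± 0.90% of counts in controls and 11.6 ± 1.35% in probiotic fish (SD, n = 6 each, exact permutation p = 0.0152, adjusted p = 0.0909 over 6 library measures). Most of the gap lay in 1 gene, LOC112262069, which has no symbol in the tables used. It took 6.64 ± 0.68% of counts in controls and 5.27 ± 0.89% in probiotic fish (log2 fold change -0.38, at an unadjusted edgeR p under 0.05). The endocytic receptor gene cubn, also among the 10 genes with the highest mean share, took 0.471 ± 0.0883% and 0.491 ± 0.0821%.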
